A study of Homo sapiens with 15 samples.

Results

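Levels of the genes that move and store zinc were read from 3 RNA-seq libraries of C4-2B cells. The 36 genes are the 14 SLC39A importers, the 10 SLC30A exporters, 11 metallothioneins and MTF1, and they were chosen by gene family from a list of symbols, out of 58302 genes in the count tables. Each symbol was found once, and all 36 genes are protein-coding. C4-2B is an established prostate cancer cell line derived from LNCaP, labelled adenocarcinoma and wild type. It was grown in RPMI with fetal bovine serum, and the labels name no zinc, metal or other treatment. The study used it as the parental adenocarcinoma line beside neuroendocrine-like lines. Libraries are labelled for 5 groups of 3, namely C4-2B, DKD with scr, DKD with siPax5, ER with scr and ER with siPax5. Values of the C4-2B group are described. The DKD and ER groups were not analysed here, so that no condition is compared. Nothing in the labels says whether the 3 libraries came from separate cultures.

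Zinc enters the cytosol through SLC39A proteins, also called ZIP transporters, from outside the cell or from internal stores. It leaves the cytosol through SLC30A proteins, also called ZnT transporters, across the surface membrane or into organelles and vesicles. Metallothioneins are small cysteine-rich proteins that bind zinc and copper, and MTF1 is a transcription factor that switches their genes on when free zinc rises, by binding metal response elements in their promoters. Luminal cells of the normal prostate accumulate zinc to levels far above those of most tissues, and high zinc in these cells is linked to the secretion of citrate, while prostate cancer tissue is known for low zinc.

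Replicates 1, 2 and 3 had 44992971, 49569026 and 46232076 counts over all genes. Counts were divided by each gene's deposited exon length and scaled to TPM, which puts all genes of a library on a common total, so that levels of different genes can be set side by side. A gene was called expressed when it reached 1 TPM in all 3 libraries. The label of the cells was checked first. The luminal markers KLK3, KLK2, TMPRSS2, HOXB13, FOLH1, KRT8 and KRT18 were all expressed, from 197 TPM for KRT8 to 1988 TPM for KLK3. Of the basal markers, TP63 had no count, KRT5 had 1 count over the 3 libraries and KRT14 stood at 0.865 TPM. The neuroendocrine genes CHGA and SYP had means of 1.38 and 1.31 TPM. Of the markers of other cell types, COL1A2 and DCN had no count, PTPRC had 2 counts, PECAM1 had 14 counts and COL1A1 had 7.09 TPM.

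Of the 36 genes, 21 were expressed, 12 were below 1 TPM in every library and 3 fell on both sides of 1 TPM. The expressed share over all protein-coding genes was 61.2%, and it was 32.8% over all genes listed. No count was found in any library for 7 members, against 12.6% of protein-coding genes. The families differed in this respect. Of the importers 11 of 14 were expressed, of the exporters 6 of 10, and of the metallothioneins 3 of 11. The median level was 38.1 TPM over the expressed members and 22.2 TPM over the expressed protein-coding genes. The highest 10% of protein-coding genes began at 70.0 TPM, and 8 members lay in it. These were SLC39A6, SLC39A7, SLC39A8, SLC39A14, SLC39A1, SLC39A9, SLC30A4 and MT2A. Together the 36 genes made up 0.143% of all TPM.

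**Figure D1:**
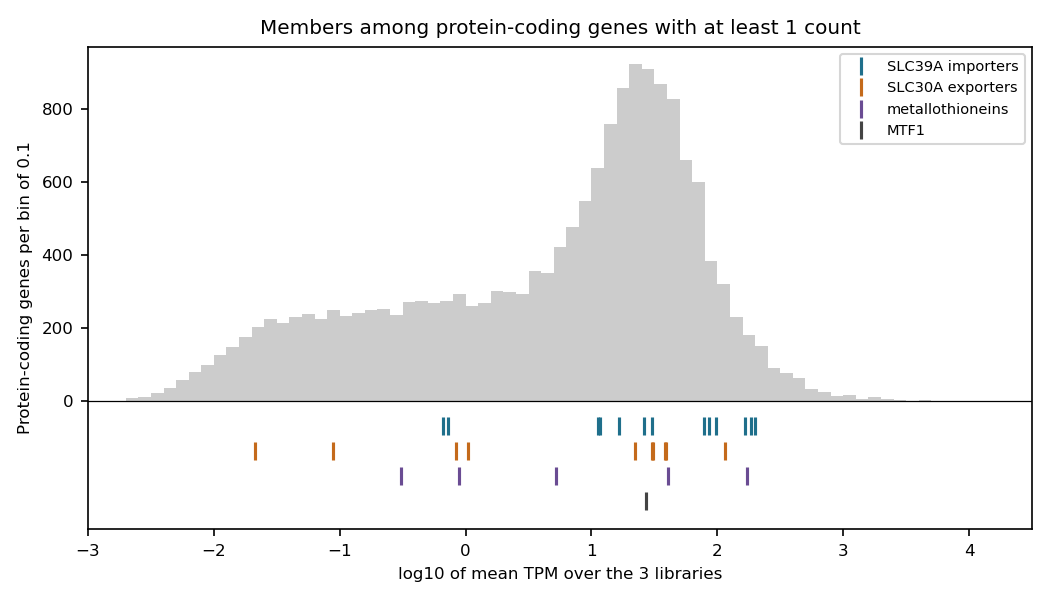
Histogram of the mean level over the 3 C4-2B libraries (log10 of TPM) for protein-coding genes with at least 1 count, in bins of 0.1, with the members of each family marked as ticks under it. The importers SLC39A6, SLC39A7, SLC39A8, SLC39A14, SLC39A1 and SLC39A9, the exporter SLC30A4 and the metallothionein MT2A sit in the upper tail above 70.0 TPM, and the 7 members without counts cannot be drawn on this scale.

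The distribution of protein-coding levels had a broad low shoulder and a peak of expressed genes. The expressed importers fell in the peak or above it, while the exporters below 2 TPM and the lowest metallothioneins fell in the shoulder.

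Every member is placed in the plot of levels by library. In that plot the replicate symbols of the expressed genes nearly coincide, and wide gaps between libraries appear only among genes near or below 1 TPM.

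**Figure D2:**
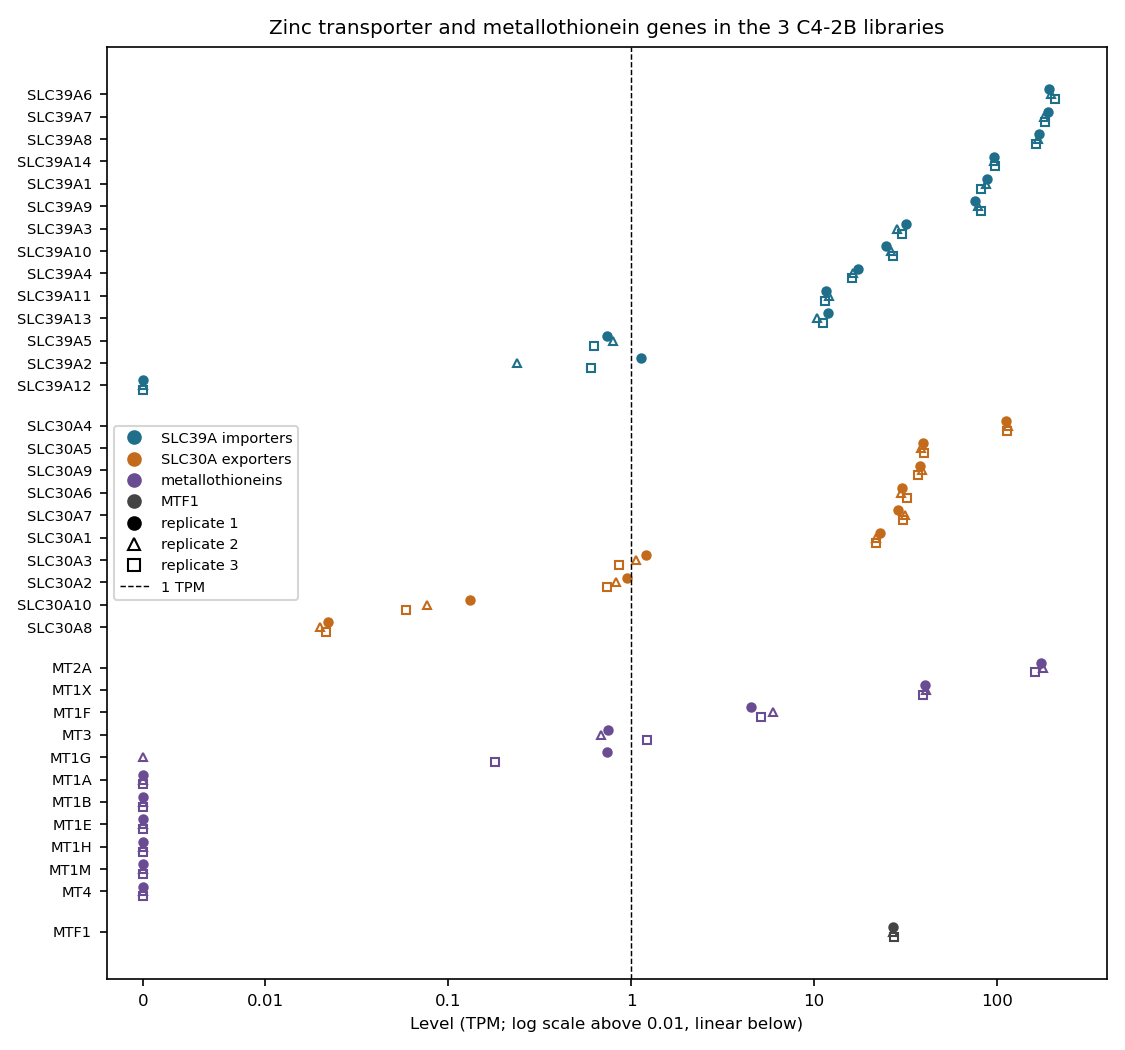
Level of each of the 36 genes in each C4-2B library (TPM, log scale above 0.01 and linear below it), ordered by mean within each family, with 1 TPM as a dashed line and 1 symbol per replicate. The 21 expressed genes run from 5.20 TPM (MT1F) to 199 TPM (SLC39A6), and 6 metallothioneins and SLC39A12 sit at 0.

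SLC39A6, SLC39A7 and SLC39A8 were the importers with the highest levels. Together they carried 60.6% of the summed importer level. All are of the LIV-1 subfamily, named after SLC39A6 itself. SLC39A6, a surface importer first described as an oestrogen-regulated gene of breast cancer (ENSG00000141424, chr18:36108532-36129385, minus strand), had 192, 198 and 207 TPM, with a mean of 199 ± 7.78 (SD, n = 3). SLC39A7, which releases zinc from the endoplasmic reticulum (chr6:33200445-33204439, plus strand), had 189, 180 and 184 TPM, with a mean of 184 ± 4.63. SLC39A8, which also carries manganese and cadmium (chr4:102251041-102431258, minus strand), had 170, 168 and 163 TPM, with a mean of 167 ± 3.52. The ranges of these 3 genes over the libraries did not overlap. Their order nevertheless depended on the length by which counts were divided. Exons of RXRB cover 8.58% of the exon bases of SLC39A7, where reads were not counted. With exon bases shared with other genes left out of the length, SLC39A7 had 192 ± 4.85 TPM, SLC39A6 190 ± 7.38 and SLC39A8 164 ± 3.48. With the length of the canonical transcript of GENCODE 44 in place of all exon bases, SLC39A8 came first at 231 ± 4.68 TPM, above SLC39A7 at 146 ± 3.57 and SLC39A6 at 138 ± 5.53, whose ranges then overlapped.

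A second tier of importers lay between 75 and 98 TPM. SLC39A14, a carrier of zinc, manganese and free iron, had 96.0, 96.6 and 97.8 TPM, a mean of 96.8 ± 0.935. SLC39A1, regarded as the main zinc uptake transporter of prostate luminal cells (chr1:153959099-153968184, minus strand), had 87.8, 87.4 and 81.4 TPM, a mean of 85.5 ± 3.57. SLC39A9, of the Golgi and the cell surface, had 75.7, 78.9 and 81.9 TPM, a mean of 78.8 ± 3.11. The ranges of SLC39A1 and SLC39A9 overlapped, so they are not put in order here. SLC39A6 stood above SLC39A1 in every library, with a ratio of 2.33 ± 0.190. By canonical length the levels were 138 TPM for SLC39A6 and 95.7 TPM for SLC39A1.

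The remaining expressed importers lay between 10 and 32 TPM. SLC39A3, a close relative of SLC39A1, had a mean of 30.2 ± 1.74 TPM. SLC39A10, of the LIV-1 subfamily, had 26.0 ± 1.19 TPM. SLC39A4, the intestinal importer whose loss causes acrodermatitis enteropathica, had 16.7 ± 0.769 TPM. SLC39A11 had 11.8 ± 0.273 TPM and SLC39A13, of Golgi and vesicle membranes, had 11.2 ± 0.803 TPM, and their ranges overlapped. SLC39A3 was the importer whose level moved most with the length used as a ratio, to 67.6 ± 3.86 TPM by canonical length, since its canonical transcript has 1367 bases against 4552 exon bases in all.

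The other 3 importers were not expressed. SLC39A12, known from brain, had no count in any library. Over the 3 libraries, 3 counts would correspond to 0.0236 TPM. Like every interval and limit given here, this covers counting error only. It also treats counts as independent, so the limit would be higher where both mates of a pair were counted. SLC39A5, known from gut, kidney and pancreas, had 31, 37 and 27 counts, or 0.722 ± 0.0864 TPM. SLC39A2, the third member of the subfamily of SLC39A1 and SLC39A3, had 26, 6 and 14 counts, or 1.14, 0.239 and 0.602 TPM. The highest library of SLC39A2 was above 1 TPM and the lowest was far under it, and its mean was 0.660 TPM, and 0.421 TPM without replicate 1. Its range overlapped that of SLC39A5.

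Summed over their family, the importers had 910, 903 and 913 TPM, a mean of 909 ± 4.79 (n = 3). By subfamily, the 9 LIV-1 genes carried 77.2% ± 0.192 of that sum. Subfamily II, the group of SLC39A1, SLC39A2 and SLC39A3 on which most prostate work has centred, carried 12.8% ± 0.477, or 116 ± 4.19 TPM. By canonical length subfamily II was at 164 ± 5.60 TPM and the LIV-1 genes were at 678 ± 3.60 TPM, so that the order of these subfamilies was the same under both lengths.

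Among the exporters, 1 gene stood apart. SLC30A4, which loads zinc into vesicles (ENSG00000104154, chr15:45479611-45522807, minus strand), had 113, 115 and 114 TPM, with a mean of 114 ± 1.26 and 41.2% of the summed exporter level. The next exporter was near 39 TPM, so no library of SLC30A4 came near any other gene of its family. It kept first place by canonical length, at 87.1 ± 1.02 TPM. Its relatives in vesicle loading were low. SLC30A3, of synaptic vesicles, had 1.21, 1.06 and 0.861 TPM. SLC30A2, known from milk secretion, had 0.947, 0.826 and 0.735 TPM. SLC30A8, of the insulin granules of pancreatic beta cells, had 2 counts in each library. Of the summed level of these 4 vesicle exporters, SLC30A4 therefore held nearly all, 114 of 116 TPM.

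The exporters of the early secretory pathway were close to each other. SLC30A5 had 39.4, 38.4 and 39.8 TPM, a mean of 39.2 ± 0.730. SLC30A6, its partner in a heterodimer, had 30.4, 30.04 and 32.2 TPM, a mean of 30.9 ± 1.16. SLC30A7, which acts as a homodimer in the same compartment, had 29.0, 31.3 and 30.8 TPM, a mean of 30.4 ± 1.23. SLC30A5 was the higher partner of its dimer in every library, and SLC30A6 and SLC30A7 overlapped. SLC30A9, a mitochondrial exporter, had 38.1 ± 1.02 TPM and overlapped SLC30A5. By canonical length SLC30A5 was at 38.2 TPM, SLC30A9 at 30.02, SLC30A6 at 22.1 and SLC30A7 at 20.9.

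SLC30A1, the exporter of the cell surface and itself a target of MTF1 (chr1:211571568-211578742, minus strand), had 22.9, 21.9 and 21.8 TPM, a mean of 22.2 ± 0.622. It was the lowest of the 6 expressed exporters in all 3 libraries, with SLC30A4 at 5.14 ± 0.195 times its level. By canonical length SLC30A4 was at 87.1 TPM and SLC30A1 at 13.9 TPM. SLC30A10, which exports manganese, had 11, 7 and 5 counts, or 0.0888 ± 0.0380 TPM. Over the family the exporters had 275, 278 and 278 TPM, a mean of 277 ± 1.81. By exon union the summed importer level was 3.28 ± 0.0316 times that of the exporters. By canonical length the sums were 928 and 214 TPM, so the ratio was higher. This ratio sets 14 genes against 10, and it is a ratio of transcript levels and not of transport.

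The metallothioneins had the most uneven levels of the families. MT2A, the most widely expressed metallothionein of human tissues (ENSG00000125148, chr16:56608199-56609497, plus strand), had 3262, 3680 and 3094 counts, or 173, 178 and 161 TPM, with a mean of 171 ± 8.62. MT1X (chr16:56682424-56684196, plus strand) had 1040, 1156 and 1032 counts, or 40.5, 41.0 and 39.4 TPM, with a mean of 40.3 ± 0.795. MT1F (chr16:56657694-56660698, plus strand) had 124, 179 and 143 counts, or 4.53, 5.95 and 5.12 TPM, with a mean of 5.20 ± 0.715. The ranges of these genes were far apart. MT2A held 78.5% ± 0.601 of the summed metallothionein level, MT1X 18.5% ± 0.442 and MT1F 2.39% ± 0.298.

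MT3, known from brain, had 20, 20 and 33 counts, or 0.751, 0.684 and 1.22 TPM, and was above 1 TPM only in replicate 3. MT1G had 8, 0 and 2 counts, or 0.736, 0 and 0.181 TPM, and most of its few counts came from replicate 1, without which its mean was 0.0903 TPM in place of 0.305 TPM. The ranges of MT3 and MT1G overlapped. MT1A, MT1B, MT1E, MT1H, MT1M and MT4 had no count in any library. For these 6 genes a total of 3 counts would correspond to levels from 0.0631 TPM (MT1E) to 0.226 TPM (MT4, a gene of stratified epithelia). All of these limits lie far below the level of MT1F.

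Whether reads of these near copies could be counted at all was examined in the genome sequence. The second exon of the MT1 and MT2 genes is a coding block of 66 bases that codes for part of the first metal-binding domain, and it is shown here for the 3 expressed genes, for MT1E and MT1G, which had few or no counts, and for MT3. The sequences are from GRCh38 and are written in the direction of the gene, with capitals at bases that differ from MT2A. The block of MT2A lies at chr16:56608992-56609057 and that of MT1E at chr16:56626466-56626531.
MT2A: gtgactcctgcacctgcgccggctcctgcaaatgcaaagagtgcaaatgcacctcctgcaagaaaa
MT1X: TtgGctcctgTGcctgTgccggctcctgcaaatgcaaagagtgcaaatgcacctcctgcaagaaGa
MT1F: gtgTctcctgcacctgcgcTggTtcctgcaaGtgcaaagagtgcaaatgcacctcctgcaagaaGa
MT1E: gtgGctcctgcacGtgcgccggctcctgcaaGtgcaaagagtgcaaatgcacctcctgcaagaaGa
MT1G: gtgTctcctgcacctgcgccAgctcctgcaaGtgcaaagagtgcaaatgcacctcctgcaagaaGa
MT3: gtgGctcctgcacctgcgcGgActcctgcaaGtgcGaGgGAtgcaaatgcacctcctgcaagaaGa
In this block MT1E and MT1G each differed from MT2A at 4 bases, MT1F at 5, MT1X at 6 and MT3 at 9. A read short enough to fit between the differing bases can align equally well to several genes, and reads aligned to several places were not counted.

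Over whole genes the copies were less alike. Of all 50-base windows of exon sequence, the share with an exact match elsewhere in the genome was 3.44% for MT2A, 1.97% for MT1X and 0.726% for MT1F. It was 15.03% for MT1G, 14.05% for MT1E, 13.0% for MT1M and 10.6% for MT1H. For MT1A, MT1B, MT3 and MT4 it was 0. Most of the exon union of every metallothionein gene was therefore distinct at this window length, among them the 6 genes without counts. The share within the canonical transcripts was not determined. MT1M had 103 matching windows, with 942 exon bases and 398 bases in its canonical transcript, while MT1A has 396 bases by either length. Windows across splice junctions and inexact matches were not searched. The read length is not given in the sources used here. With 36-base windows the share reached 24.4% for MT1M, and with 100-base windows MT1E at 3.16% was the only metallothionein with any. Part of MT1B (31.6% of its exon bases) and of MT1X (18.1%) also lies in exons of a lncRNA gene on the same strand, where a read is counted for neither gene. For MT1X these are 321 bases, while its canonical transcript has 404 bases. How many of the 321 lie in that transcript was not determined, so the counts of MT1X may be too low by an unknown amount. Both lncRNA genes had 0 counts.

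The 11 metallothionein genes lie in 1 cluster of 119 kb on chromosome 16, and the counts followed a pattern along it. From MT4 the order is MT3, MT2A, then 8 MT1 genes and pseudogenes up to MT1B, then MT1F, MT1G, MT1H, the pseudogene MT1IP and MT1X. The 8 between MT2A and MT1F span 35.7 kb and include the members MT1E, MT1M, MT1A and MT1B. Of these 8, 7 had no count, and the pseudogene MT1DP had 2 counts in each library. MT2A and MT1X, with the highest counts of the cluster, have starts 74.2 kb apart with that stretch between them. The nearest protein-coding genes on both sides, BBS2 before MT4 and NUP93 after MT1X, chosen here by position alone, had 23.2 ± 0.911 and 34.4 ± 0.316 TPM.

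**Figure D3:**
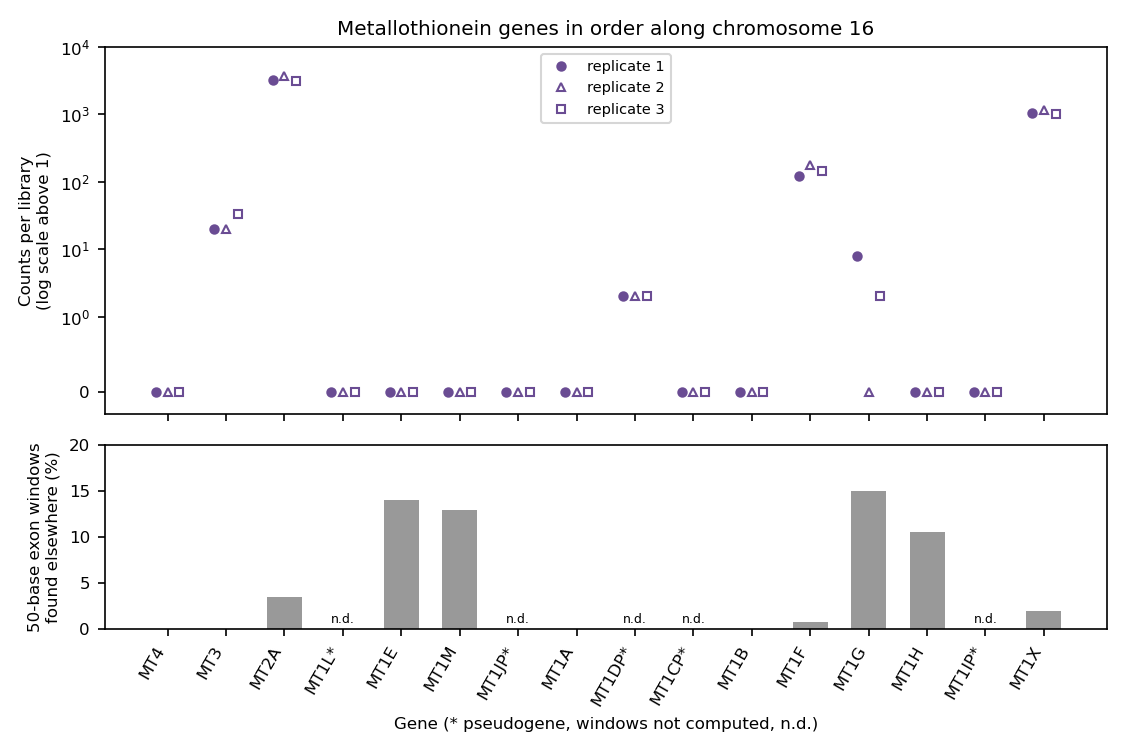
Upper panel, counts of each metallothionein gene and pseudogene of the cluster in each C4-2B library (log scale above 1), in order along chromosome 16. Lower panel, percent of a gene's 50-base exon windows with an exact match elsewhere in the genome, which was not determined for pseudogenes. MT2A, MT1F and MT1X carry counts above 100 in every library, and 10 loci sit at 0.

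Beyond the cluster, 2 pseudogenes of the family had more counts than MT1G. MT1P1 had 41 counts and MT1XP1 had 39 counts over the 3 libraries. Their short exons gave them 4.96 ± 1.87 and 4.61 ± 1.11 TPM. MT1P1 shares 50-base windows with MT1G, MT1X and MT2A, and MT1XP1 with the same genes, so the counts of these copies are uncertain. MT1L, MT1JP, MT1CP, MT1IP and MT1HL1 had no count, and MT1P3 and MT2P1 had 3 counts each.

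MTF1, the metal-responsive factor (ENSG00000188786, chr1:37809567-37859620, minus strand), had 27.2, 26.9 and 27.3 TPM, with a mean of 27.1 ± 0.183. Over these 3 libraries it had the lowest coefficient of variation of the expressed members, 0.676%, with SLC39A14 next at 0.966%. Whether such small values differ between genes was not tested. Its level lay above 73.6% of protein-coding genes.

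Metal response elements are known in the promoters of metallothionein genes and of SLC30A1, so promoters were searched for the core letters. The cores TGCACNC and TGCGCNC were searched on both strands in the 250 bases before each gene start, in sequences from RefSeq on GRCh38. Windows were at hand for 27 members. MT1A, MT1E, MT1F, MT1G, MT1M, MT3, SLC39A4, SLC39A14 and SLC30A8 had none in the table. Shown are the 2 most expressed metallothioneins, 2 metallothioneins of the same cluster without counts, and SLC30A1. Capitals mark core matches on either strand. The windows are chr16:56608334-56608583 (MT2A), chr16:56682220-56682469 (MT1X), chr16:56669564-56669813 (MT1H), chr16:56651636-56651885 (MT1B), all on the plus strand, and chr1:211579162-211579411 (SLC30A1, minus strand).
MT2A: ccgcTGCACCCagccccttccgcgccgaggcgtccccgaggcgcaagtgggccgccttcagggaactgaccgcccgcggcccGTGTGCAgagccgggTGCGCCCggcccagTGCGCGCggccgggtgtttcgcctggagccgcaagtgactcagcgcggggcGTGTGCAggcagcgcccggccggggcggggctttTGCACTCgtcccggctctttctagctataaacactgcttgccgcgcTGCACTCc
MT1X: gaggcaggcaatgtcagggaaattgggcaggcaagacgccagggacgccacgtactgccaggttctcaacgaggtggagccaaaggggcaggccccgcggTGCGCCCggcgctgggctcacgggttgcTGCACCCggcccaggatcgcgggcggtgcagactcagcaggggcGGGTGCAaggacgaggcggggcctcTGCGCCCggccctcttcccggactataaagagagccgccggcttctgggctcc
MT1H: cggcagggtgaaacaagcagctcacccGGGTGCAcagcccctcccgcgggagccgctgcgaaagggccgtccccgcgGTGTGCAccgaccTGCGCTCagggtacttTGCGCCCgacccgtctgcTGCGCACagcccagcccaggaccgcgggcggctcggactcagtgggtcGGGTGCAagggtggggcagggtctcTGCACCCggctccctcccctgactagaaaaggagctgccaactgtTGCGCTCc
MT1B: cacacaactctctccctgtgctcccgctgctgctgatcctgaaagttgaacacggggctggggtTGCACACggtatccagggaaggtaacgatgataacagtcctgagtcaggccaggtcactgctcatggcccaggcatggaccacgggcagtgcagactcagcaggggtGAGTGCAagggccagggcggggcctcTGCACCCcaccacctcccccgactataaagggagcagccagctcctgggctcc
SLC30A1: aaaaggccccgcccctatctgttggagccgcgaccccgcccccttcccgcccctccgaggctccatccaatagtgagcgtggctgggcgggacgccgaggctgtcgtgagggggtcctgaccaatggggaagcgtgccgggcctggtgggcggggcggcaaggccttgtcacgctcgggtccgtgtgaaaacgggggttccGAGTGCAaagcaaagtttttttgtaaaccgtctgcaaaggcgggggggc
MT2A had 7 matches and MT1X had 4. MT1H had 8 and MT1B had 3, and both of these genes had no counts. MT4, the other metallothionein with a window, had 3 matches and no counts. At least 3 matches were present in 1.58% of the 35116 promoter windows of the table, at least 4 in 0.370% and at least 6 in 0.0513%. In these windows the number of matches did not separate the metallothioneins with counts from those without. The RefSeq start of MT2A lies 385 bases inside the gene as the count tables define it, so the window shown is among the bases over which its reads were counted.

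Outside the metallothioneins no window of a member held more than 3 matches, the number found for MT1B and MT4. SLC30A2, which was below 1 TPM, had 3, SLC30A3 had at most 2 and SLC30A1 had 1. At least 1 match was present in 24.8% of all single windows. By gene, at least 1 match was present for 15 of the 27 members, metallothioneins among them, counting a gene with several starts once. The shares are not alike, since a gene with several windows has more chances of a match. MTF1 had none, and SLC39A6 had 1. A match is a run of letters and not evidence of binding.

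How levels of the families stood to each other depended on gene length. The count tables give each gene the union of all its annotated exons, which for some short genes is far more than the canonical transcript. Which transcripts these cells use was not tested. The canonical transcript of MT2A has 401 bases and its exon union 1299, and for MT1X the lengths are 404 and 1773. Of the 36 members, 10 had a canonical transcript less than 0.5 times the exon union. The median ratio was 0.547 for the metallothioneins, 0.677 for the importers, 0.905 for the exporters and 0.790 for all protein-coding genes.

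By canonical length MT2A stood at 372 ± 18.6 TPM and was the highest of the 36 genes, ahead of SLC39A8. The counts used were still those over the whole exon union. Any reads from exon bases outside the canonical transcript therefore raise a gene's level by this length. MT1X stood at 119 ± 2.29 TPM, MT1F at 15.6 ± 2.15 TPM and MT3 at 2.69 ± 0.885 TPM. SLC30A1 stood at 13.9 ± 0.377 TPM. Its canonical transcript has 5893 bases, more than the 5474 exon bases over which its reads were counted. Its level by this length may therefore be too low. The summed metallothionein level was 217 ± 9.40 TPM by exon union, below the exporters at 277 TPM, and 509.95 ± 20.9 TPM by canonical length, above the exporters at 214 TPM. The order of those families therefore reversed with the length used, while the importers were highest under both, at 909 and 928 TPM. MT2A stood above MT1X under both lengths, 4.24 ± 0.132 times by exon union and 3.13 ± 0.0971 times by canonical length. Neither length allows for reads of MT1X lost where it shares bases with a lncRNA gene.

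**Figure D4:**
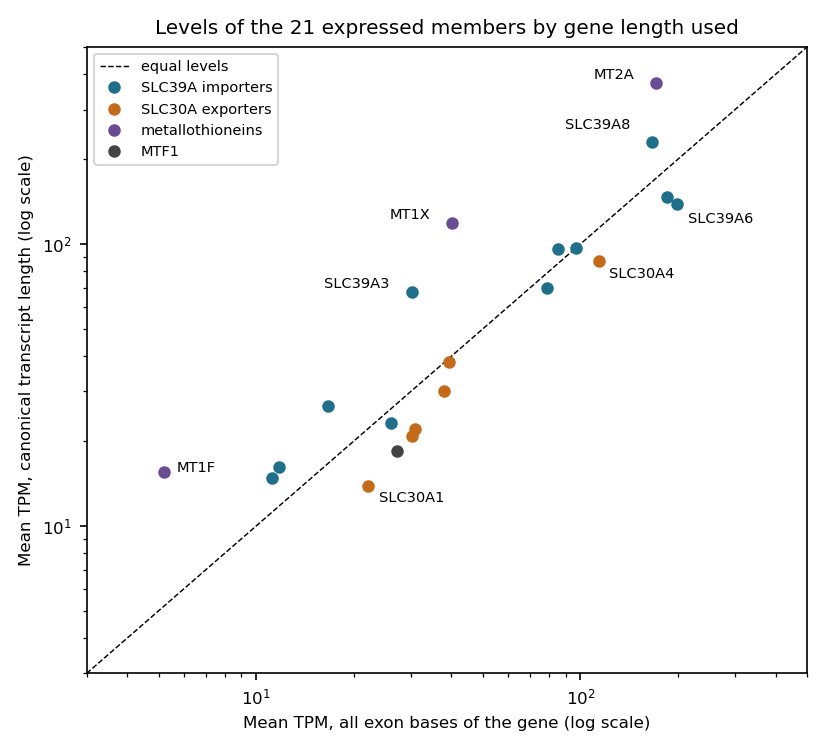
Mean level of each of the 21 expressed members over the 3 C4-2B libraries, by all exon bases (horizontal axis, TPM, log scale) and by the length of the canonical transcript (vertical axis, TPM, log scale), with equal levels as a dashed line. MT2A, MT1X, MT1F and SLC39A3 lie farthest above the line, and SLC30A1, SLC39A6 and MTF1 lie below it.

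In the plot of both scales MT2A, MT1X, MT1F and the importer SLC39A3 lie farthest above the line, and each has a canonical transcript that is short against its exon union. The exporters lie on or below the line.

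The 3 libraries were then compared with each other gene by gene, which asks whether they differ by more than counting error and compares no condition. Of the 36 members, 26 had at least 30 counts and were tested by chi-square, with the statistic divided by 2 because the mates of a read pair were counted separately. None had a Benjamini-Hochberg adjusted p under 0.05, against 0.792% of the 22229 genes tested. At an unadjusted p under 0.05 by this chi-square there were 8 of the 26 members, against 11.3% of all genes tested. Without the division, 9 of the 26 members were called, against 17.3% of all genes tested. Both shares were higher among the members. The test has more power for genes with more counts, and whether this lies behind the higher shares was not tested. The division assumes that both mates of each pair were counted, and it is conservative where only 1 was. If both mates always were, counts would be even, and of the counts from 1 to 20 over all genes 55.6% were even. The members called without the division were SLC39A1, SLC39A2, SLC39A3, SLC39A6, SLC39A7, SLC39A8, SLC39A9, SLC30A7 and MT2A.

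The differences behind these values were small except in genes with few counts. The median log2 ratio of the highest to the lowest library was 0.10 over the tested members and 0.20 over all tested genes. SLC39A6 had the lowest adjusted p of the members, 0.112 by chi-square divided by 2, with a log2 ratio of 0.10 between its highest library, replicate 3, and its lowest, replicate 1. Without replicate 2, its adjusted p was 0.0436. MT2A had a log2 ratio of 0.15, with replicate 2 highest and replicate 3 lowest (adjusted p = 0.234 by the same chi-square). SLC39A14, on 30368 counts, had a log2 ratio of 0.01. The widest ratios among the 26 tested members were 2.26 for SLC39A2 and 0.82 for MT3, on 46 and 73 counts. Over the 21 expressed members the coefficient of variation ran from 0.676% (MTF1) to 13.8% (MT1F), with a median of 3.77%, against 3.44% for all expressed protein-coding genes.

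**Figure D5:**
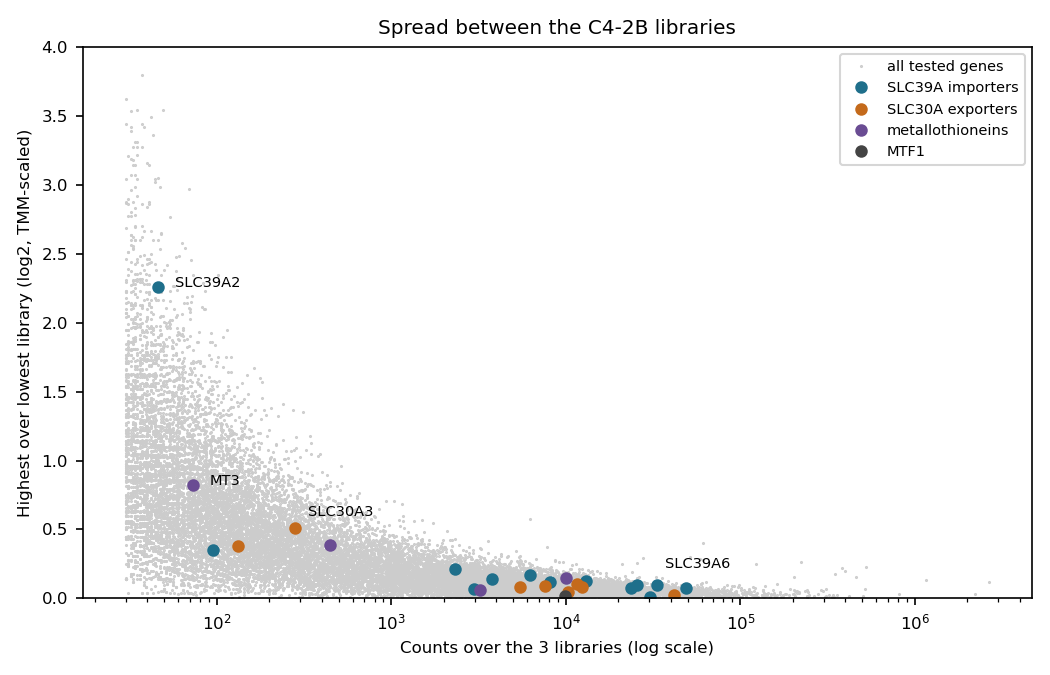
Ratio of the highest to the lowest C4-2B library (log2, after TMM scaling) against counts over the 3 libraries (log scale), for all genes with at least 30 counts (grey points) and for the 26 members tested (coloured points). The members with the most counts lie close to 0, and SLC39A2 (46 counts) and MT3 (73 counts) lie highest among the members.

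In the plot of spread the cloud of all genes widened toward low counts, and the members lay inside the cloud at each count. SLC39A2 had an adjusted p of 0.342 by chi-square divided by 2, and of 0.00760 by the undivided chi-square.

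Genes that act on zinc or citrate outside these families were read in the same way. SLC11A2, a carrier of divalent metals, and TRPM7, a channel that passes zinc and magnesium, had 32.8 ± 0.513 and 29.9 ± 0.288 TPM. TMEM163, a zinc exporter of vesicles and the cell surface, had 0.780 ± 0.133 TPM, and the zinc-sensing receptor GPR39 had no count. Of the genes of citrate handling, CS, SLC25A1, GOT2, ANKH and SLC1A1 were expressed. The citrate synthase gene CS had 215, 220 and 227 TPM, a mean of 221 ± 5.99. The mitochondrial citrate carrier gene SLC25A1 had 275 ± 7.91 TPM, the aspartate aminotransferase gene GOT2 265 ± 4.05, ANKH, which exports citrate, 32.7 ± 0.431, and the aspartate importer gene SLC1A1 3.92 ± 0.305. None of the 8 of these genes with enough counts was called between the libraries by the chi-square test, and CS and SLC25A1 had an unadjusted p under 0.05.

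Metallothioneins also bind copper, and of 9 copper handling genes 7 were expressed. By exon union the surface copper importer SLC31A1 was the highest at 77.2 ± 0.341 TPM. By canonical length it was at 55.9 TPM, below ATOX1 at 261 ± 5.08 TPM and COX17 at 162 ± 4.99 TPM. ATP7A and ATP7B, the copper pumps mutated in Menkes and Wilson disease, had 15.1 ± 0.107 and 9.08 ± 0.103 TPM. SLC31A2 was on both sides of 1 TPM, with 1.40, 1.51 and 0.676 TPM, but 63.1% of its exon bases lie in exons of other genes, where reads were not counted. SCO2 had no count, and all of its exon bases lie in exons of another gene, so its reads could not be counted.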

How the data were processed

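Total RNA of the cells was depleted of ribosomal RNA and made into directional libraries. Per the labels, the authors used FastQC, Trim Galore, STAR 2.7.0f and featureCounts of Subread 1.6.3, and named DESeq2 1.26.0. The deposited tables hold whole-number counts without normalization, 1 value a gene, on GRCh38 genes of Ensembl release 90. The recorded command set neither strand nor pairs, so mates were counted separately on either strand, and reads over several genes or places were not counted. The deposited gene length is the union of a gene's exons. Without strand, reads of a gene and of antisense transcription over it cannot be told apart. The study's own TPM values were not used here.

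TPM was scaled to the sum over all 58302 genes of a library, and mean and SD are over 3 libraries of 44992971 to 49569026 counts. Libraries were compared by a chi-square goodness of fit of each gene's counts to TMM-scaled library sizes (edgeR 4.0.16, R 4.3.3, SciPy 1.17.1), with 2 degrees of freedom, the statistic divided by 2, at least 30 counts and Benjamini-Hochberg adjustment over all genes tested. The p-values measure the spread between these libraries, which may be technical. The chi-square step was tested on data simulated with both mates of every pair counted, so this test cannot judge the division by 2. With no change simulated, 0 of 22281 genes were called. With 200 genes changed 2-fold in 1 library, 67.5% of them and 14 unchanged genes were called. Windows of exon sequence were searched on both strands of GRCh38, and gene types and canonical transcripts came from GENCODE 44. Coordinates are those of the deposited tables, and promoter sequences are from RefSeq.

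The members and the gene lists were chosen with earlier results of these data known. All members were named, with the listed relatives and the genes of zinc, citrate and copper handling. Alternatives were another threshold, CPM, another denominator, length or scaling (DESeq2 1.42.0 size factors among them), the minimum count, the undivided statistic and each library left out. Protein sequences were not used here. Some genes of the citrate and luminal lists are not reported here.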

Additional observations from a re-analysis of the deposited data

How the results depend on the processing

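The number of expressed members stayed between 21 and 25 under every threshold, unit, denominator and length tried, and between 21 and 22 with a library left out. Most summed levels moved by more than the spread between libraries with another denominator or length, and none did with a library left out. With protein-coding genes alone as the denominator, the sums were 1266 TPM for the importers, 386 TPM for the exporters and 303 TPM for the metallothioneins, which follows from the smaller denominator. With exon bases shared with other genes left out of the length, they were 903 TPM for the importers, 272 TPM for the exporters and 216 TPM for the metallothioneins, the last within the spread. With the canonical transcript length, an alternative chosen after seeing the data, they were 928, 214 and 509.95 TPM, which follows from the lengths used. The counts were still those over the whole exon union. With a library left out, the importers ranged from 907 to 911 TPM, the exporters from 276 to 278 TPM and the metallothioneins from 213 to 223 TPM. Calls between libraries rose from 0 to 9 members when the chi-square was not divided by 2, and ranged from 0 to 1 with a library left out, the 1 being SLC39A6 without replicate 2. Other scalings (scaling within bins of exon GC content was chosen after seeing the data) and minimum counts called 0 members. No paired analysis was possible because counts of the C4-2B group alone were used, and replicate numbers therefore have no partner in another group. Levels near or below 1 TPM rest on few counts, and the order of the exporter and metallothionein sums reversed with the canonical length and not with the length outside overlaps.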
